A study of Mus musculus with 4 samples.

Results

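Receptors for monoamines, neuropeptides, purines, cannabinoids and prostaglandins, together with orphan receptors of the Gpr series, were examined in the prefrontal cortex of transgenic and control mice. Members were the probe sets with a single gene symbol beginning with Htr, Drd, Adra, Adrb, Adora, Grm, Opr, Sstr, Tacr, Gpr, Cnr, Ptger or P2ry, with Ednr, or with Npy, a digit and r. The rule used no measured value and gave 73 probe sets of 62 genes among 12422 probe sets on each array. No probe set with an Adora or Adrb symbol met it, so adenosine and beta-adrenergic receptors were not analysed here. The prefixes also took in 6 probe sets that do not measure receptors, those of the HtrA serine proteases Htra1, Htra2 and Htra3 and of the receptor-sorting protein Gprasp1, which leaves 67 probe sets of 58 genes. Of these genes, Htr3a encodes a ligand-gated ion channel and Gpr137b-ps is annotated as a transcribed pseudogene.

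G protein-coupled receptors cross the membrane in a bundle of helices and, when a ligand binds outside, activate a G protein inside the cell. Depending on the G protein, adenylyl cyclase is stimulated, adenylyl cyclase is inhibited, or phospholipase C is activated. In the prefrontal cortex, serotonin, dopamine and noradrenaline reach these receptors from brainstem axons, while somatostatin, neuropeptide Y and opioid peptides are largely released by local interneurons.

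Total RNA came from female mice that overexpress the synaptic form of human acetylcholinesterase (AChE), which hydrolyses acetylcholine, and from female control mice of the FVB/N strain. There were 2 transgenic pools and 2 control pools, each of 4 mice and each read on 1 single-channel array. The sources used here do not give the strain of the transgenic mice, their age or the promoter of the transgene. Nothing in the labels says that the pools of a group came from separate mice. P-values therefore reflect the spread between these pools alone, possibly a technical one, and 2 arrays per group limit the precision.

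Some facts of the whole data set bear on every value below. Median intensity was 87.45 and 88.2 in the transgenic pools and 87.4 and 86.6 in the control pools. The mouse Ache probe set fell 1.69-fold (365.3 and 355.6 in the transgenic pools, 599.5 and 621.9 in the control pools; limma adjusted p = 0.00768); whether it detects the human transgene is not given. Xist, the RNA of the inactive X chromosome in female cells, read 178.5 and 228 in the transgenic pools and 29.3 and 21.1 in the control pools, while 3 Y-linked probe sets read 28 or less on every array, so the Xist signal of the control pools goes against their female label. The cortical genes Tbr1 and Fezf2 read 367.9 or more in every pool. Of the 6 tested probe sets of cortical projection neuron markers 1 was higher and 1 lower by limma. Over all tested probe sets 5.46% were higher and 4.56% lower, the background for this and the marker counts that follow. The transcription factor Neurod2 was higher, with 621.3 and 626.3 in the transgenic pools and 167.2 and 132.1 in the control pools (log2 change 2.07). Camk2a, the kinase of excitatory synapses, was lower at 93660_at, with 31.2 and 62.9 in the transgenic pools and 136.6 and 121 in the control pools (log2 change -1.54). Summed intensities of blood markers (2 probe sets, both higher by limma) were 8473 and 6945 in the transgenic pools and 2779 and 2396 in the control pools. Those of microglial markers (8 probe sets, of which 1 of 7 tested fell) were 2019 and 1797 in the transgenic pools and 2360 and 2266 in the control pools. Of the 6 endothelial probe sets tested 2 were higher (both of Flt1), of 7 astrocyte probe sets 2 were higher (both of Aqp4) and 1 lower, of 9 oligodendrocyte probe sets 1 was lower, and of 5 olfactory bulb and neuroblast probe sets 2 were higher in the transgenic pools. At Flt1 98453_at, both Aqp4 probe sets and the olfactory bulb marker Eomes, both control values lay below 49.4, the intensity filter described below. These probe sets entered the test through the transgenic pools, so their calls are weak evidence on cell types. The part of these differences in the receptor values was not tested, and in pooled tissue fewer cells of a type and less RNA per cell cannot be told apart.

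Most receptor probe sets were dim. An intensity at or below 19.675, the 25th percentile of all values, was set to that floor, and 17 of the 73 probe sets lay at the floor on all 4 arrays (23.3%, against 17.3% of all probe sets). Only probe sets with a mean log2 intensity above the 40th percentile of all probe sets, an intensity of 49.4, entered the test. This left 33 probe sets of 28 genes (45.2%, where 7453 of all 12422 probe sets entered) and set 40 aside. The nearest members were Adra1b below the filter, at a geometric mean of 46.7, and Gpr182 above it, at 57.1. Brightness depends on the probes as well as on the RNA, so levels of different probe sets are not set against each other.

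**Figure D1:**
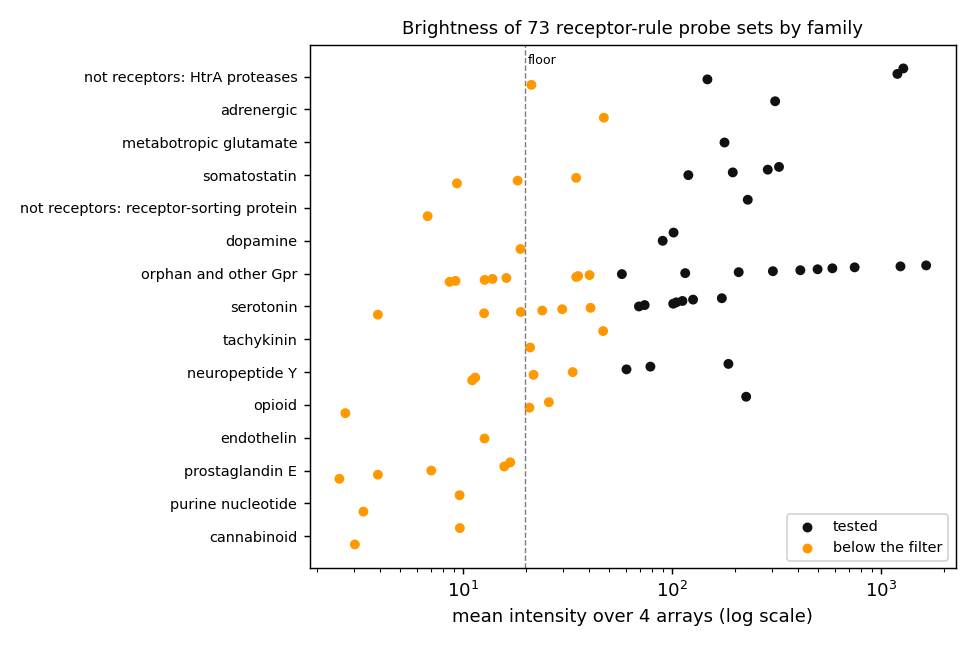
Mean intensity over the 4 arrays (horizontal, log scale) of each of the 73 probe sets, by family (vertical). Black points were tested and orange points lay below the intensity filter; the dashed line is the floor of 19.675. Every cannabinoid, purine nucleotide, prostaglandin E, endothelin and tachykinin probe set was below the filter.

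Of the 33 tested probe sets, 1 rose and 2 fell in the transgenic pools at an adjusted p under 0.05 (limma, Benjamini-Hochberg over 7453 probe sets), that is 9.09%, against 10.02% of all tested probe sets (5.46% higher and 4.56% lower). The share of members called was thus near that of the array as a whole. At an unadjusted p under 0.05 there were 8 of 33, against 24.3% of all tested probe sets. No tested member had a log2 change of 1 or more in size, against 5.62% of all tested probe sets. The median log2 change of the members was -0.18 and that of all tested probe sets -0.03, and 23 of 33 members were below 0 (54.2% of all tested probe sets were). With only the brightest tested probe set of each gene, the median was -0.13 and 18 of 28 were below 0. Without the members that are not receptors, 1 of 29 tested probe sets rose and 1 fell. Both transgenic pools were below both control pools in 12 member probe sets of 11 genes, against 29.9% of all tested probe sets, and above both in 2, against 23.8%, so that groups were separate in 14 members, against 53.7% of all tested probe sets. These shares describe the members and were not tested, because members of a family and probe sets of 1 gene are not replicates.

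**Figure D2:**
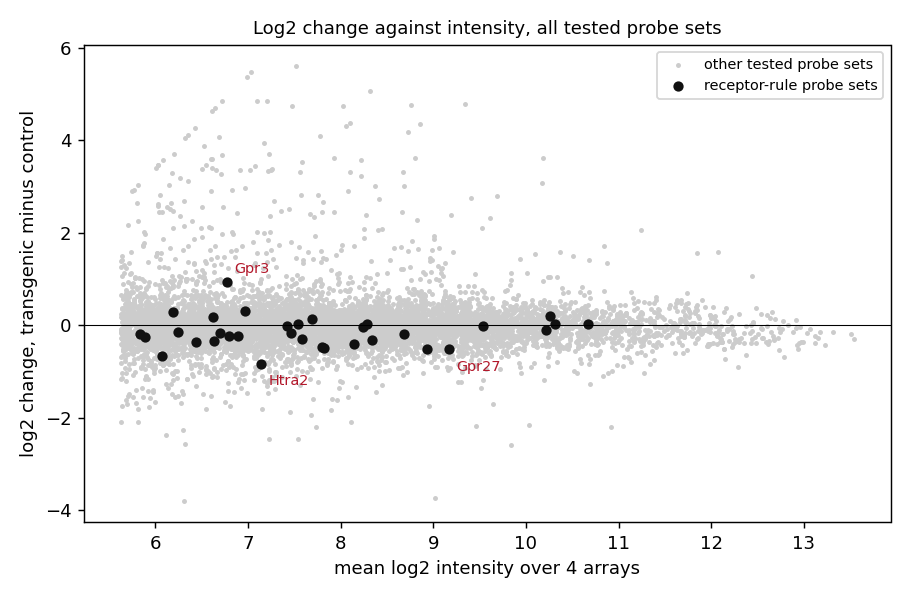
Log2 change (transgenic minus control, vertical) against mean log2 intensity (horizontal) for all 7453 tested probe sets, with the 33 receptor-rule probe sets in black. The members lie between -0.83 and 0.94, inside the range of -3.79 to 5.60 of all tested probe sets, and the 3 that passed are named.

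Arrays of the same group resembled each other across the members to about the same degree as across all probe sets. The mean absolute log2 difference over the 33 members was 0.274 between the transgenic pools and 0.243 between the control pools, and 0.268 and 0.243 over all tested probe sets. Between groups it was 0.311 to 0.411 over the members and 0.399 to 0.430 over all tested probe sets.

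Among the orphan receptors, Gpr3 rose. Gpr3 is a receptor that stimulates adenylyl cyclase without an added ligand and, in mouse oocytes, keeps meiosis arrested. Its probe set (98786_at) read 166.4 and 137.5 in the transgenic pools, against 80.6 and 77.2 in the control pools. The groups did not overlap, and the means were 152 ± 20.4 in transgenic and 78.9 ± 2.40 in control pools (SD, n = 2 pools each). The change was 1.92-fold (log2 change 0.94 ± 0.23 SE, 95% interval 0.43 to 1.45, limma adjusted p = 0.0298). The call was kept without control replicate 1 (adjusted p = 0.0442) but not without control replicate 2 (0.0594), transgenic replicate 1 (0.157) or transgenic replicate 2 (0.0980), nor without the intensity filter (0.206). Its closest relative among the members, Gpr12, another receptor of this cyclase-stimulating group, read 860.7 and 635.1 in the transgenic pools and 793.1 and 699.8 in the control pools. These groups overlapped (log2 change -0.01, 95% interval -0.39 to 0.36, limma adjusted p = 0.981).

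The promoter of Gpr3 is shown because it belongs to the only member that rose; it spans 250 bases before to 50 after the gene's start in RefSeq (GRCm38.p6, chr4:133212487-133212786, minus strand). Capitals mark matches on either strand to GGGCGG, a binding motif of Sp1, which overlap in 1 run; the other motifs searched were TGACGTCA, the cyclic AMP response element, and TATAAA.
Gpr3: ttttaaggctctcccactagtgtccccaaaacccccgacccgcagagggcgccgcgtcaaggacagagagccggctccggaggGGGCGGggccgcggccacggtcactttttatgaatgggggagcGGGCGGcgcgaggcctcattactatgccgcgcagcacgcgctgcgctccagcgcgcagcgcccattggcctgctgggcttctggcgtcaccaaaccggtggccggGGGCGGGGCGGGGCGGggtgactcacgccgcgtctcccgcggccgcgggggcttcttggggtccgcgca
The stretch held GGGCGG 5 times and 38 CG pairs, and neither of the other motifs. Among 32851 promoters of this length in the table, 35.7% held GGGCGG, 1.79% TGACGTCA and 13.6% TATAAA, and the median was 7 CG pairs (quartiles 3 and 20). A match describes the letters only.

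Both transgenic pools were below both control pools at 4 of the 10 tested orphan probe sets, as they were at 29.9% of all tested probe sets. Of these, Gpr27 and Gpr50 were lower by about the same amount. Gpr27, a receptor conserved among vertebrates and expressed mainly in brain, read 518.5 and 442.9 in the transgenic pools, against 669.6 and 707.3 in the control pools. It fell 1.44-fold (97151_at; log2 change -0.52 ± 0.14 SE, limma adjusted p = 0.0499). Gpr50, a relative of the melatonin receptors that does not bind melatonin, read 408.2 and 409.3 in the transgenic pools, against 618.3 and 550.8 in the control pools. Its log2 change of -0.51 ± 0.14 SE missed the threshold (101763_at; limma adjusted p = 0.0512). The pair thus stood on opposite sides of the threshold with nearly equal values. Gpr27 passed under 4 of 13 alternative settings (adjusted p 0.0404 to 0.224) and Gpr50 under 4 (0.0403 to 0.260), and Gpr27 failed without each of the 4 arrays in turn.

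**Figure D3:**
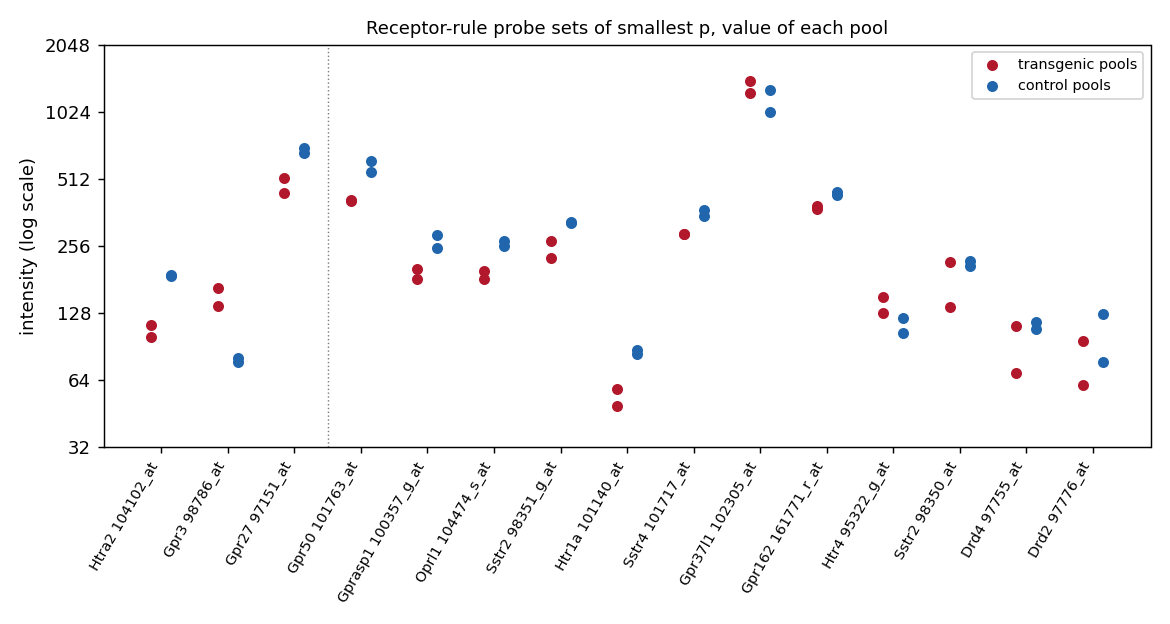
Intensity of each pool (vertical, log scale) at the 3 member probe sets that passed, left of the dotted line, and the 12 of next smallest p. Red points are transgenic pools and blue points control pools. Gpr3 is higher in both transgenic pools, Htra2 and Gpr27 lower in both.

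The other tested orphan receptors had values that did not pass. Gpr37l1, a receptor of glial cells, read 1401 and 1246 in the transgenic pools, against 1285 and 1021 in the control pools. The groups overlapped (log2 change 0.21, 95% interval -0.12 to 0.53, adjusted p = 0.435). Gpr162 read 1853 and 1466 in the transgenic pools and 1798 and 1459 in the control pools at 103931_at (log2 change 0.03, adjusted p = 0.945). Its other probe set, 161771_r_at, read 376.2 and 387.9 in the transgenic pools, against 446 and 432.8 in the control pools (log2 change -0.20, adjusted p = 0.441). Gpr19 and Gpr182 (104271_at) had log2 changes of 0.13 and -0.20, with limma adjusted p of 0.779 and 0.758. At Gpr182 the groups did not overlap, with 47.7 and 59.5 in the transgenic pools and 62.3 and 60.2 in the control pools. Gpr137b, a lysosomal membrane protein, lay below the filter and read 21.7 and 19.1 in the transgenic pools, against 41.4 and 56.7 in the control pools. It was the only untested member whose groups did not overlap and whose floored log2 change reached 1 in size (-1.23, with 1 transgenic array at the floor; adjusted p = 0.186 when all probe sets were fitted). The probe set of the related pseudogene Gpr137b-ps read 266.6 and 332.6 in the transgenic pools and 323.5 and 291.1 in the control pools, and signal shared between the 2 sequences cannot be separated here. The remaining untested orphan probe sets, of Gpr33, Gpr37, Gpr65, Gpr83, Gpr132, Gpr143 and Gpr182, had values within the 3.2 to 56.7 spanned by all 8 untested orphan probe sets.

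Somatostatin receptors, which inhibit adenylyl cyclase, had log2 changes below 0 at the 4 tested probe sets, as did 54.2% of all tested probe sets. By limma 0 of the 4 passed, against 10.02% of all tested probe sets, and 1 had an unadjusted p under 0.05, against 24.3%. Of the 3 Sstr2 probe sets, 98351_g_at read 225.9 and 267.9 in the transgenic pools, against 325.5 and 327.6 in the control pools. There the groups did not overlap (log2 change -0.41 ± 0.17 SE, 95% interval -0.78 to -0.04, adjusted p = 0.164). At 98350_at transgenic pools read 136 and 217.4 and control pools 207.4 and 219.1, so the groups overlapped (log2 change -0.31, limma adjusted p = 0.472). Without transgenic replicate 1 the log2 change at 98350_at was 0.028, so its sign reversed. At 98352_r_at transgenic pools read 110.9 and 106.8 and control pools 111.2 and 149.1 (log2 change -0.24, adjusted p = 0.580). All 3 are listed under the same accession and share their target. Sstr4 read 288.6 and 289 in the transgenic pools, against 349.7 and 371.3 in the control pools (101717_at; log2 change -0.32 ± 0.15 SE, 95% interval -0.66 to 0.02, adjusted p = 0.236). Sstr1, Sstr3 and Sstr5 were below the filter, with values of 4.3 to 51.2. The ligand of these receptors, Sst, fell 1.47-fold, with 2267 and 2087 in the transgenic pools, against 2929 and 3503 in the control pools (log2 change -0.56 ± 0.12 SE, limma adjusted p = 0.0192). Sst is a marker of an interneuron class, and its lower signal cannot be told apart from fewer such cells.

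The promoters of both tested somatostatin receptors are shown, with the same 3 motifs in capitals, to set these receptors of one family side by side. They lie on the plus strand in RefSeq (GRCm38.p6) at chr11:113619077-113619376 for Sstr2 and chr2:148395127-148395426 for Sstr4.
Sstr2: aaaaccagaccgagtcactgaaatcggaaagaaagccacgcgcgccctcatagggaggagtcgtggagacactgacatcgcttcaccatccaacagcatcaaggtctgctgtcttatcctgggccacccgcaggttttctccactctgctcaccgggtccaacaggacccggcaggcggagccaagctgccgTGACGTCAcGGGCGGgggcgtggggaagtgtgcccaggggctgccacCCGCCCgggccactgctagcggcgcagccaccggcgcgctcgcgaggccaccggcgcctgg
Sstr4: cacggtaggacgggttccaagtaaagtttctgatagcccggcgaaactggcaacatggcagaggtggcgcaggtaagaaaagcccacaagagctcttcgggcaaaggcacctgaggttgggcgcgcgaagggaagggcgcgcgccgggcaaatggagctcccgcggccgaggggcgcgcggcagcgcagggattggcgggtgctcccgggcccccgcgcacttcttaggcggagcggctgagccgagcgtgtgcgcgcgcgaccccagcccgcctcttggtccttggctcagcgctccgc
The Sstr2 stretch held TGACGTCA once, 2 matches to GGGCGG and 27 CG pairs. The Sstr4 stretch held none of the 3 motifs and 35 CG pairs. Of the 64 promoters of 47 member genes that were searched, 1 held TGACGTCA, that of Sstr2, 26 held GGGCGG and 3 held TATAAA, with a median of 10 CG pairs.

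Serotonin receptors gave 0 calls among 7 tested probe sets, whose median log2 change was -0.03. With 10.02% of all tested probe sets called, so few probe sets could well give 0. Htr1a, the inhibitory receptor that also serves as the autoreceptor on serotonin neurons, read 48.8 and 58.1 in the transgenic pools, against 83.5 and 86.9 in the control pools. The groups did not overlap, but the change did not pass (101140_at, log2 change -0.68 ± 0.29 SE, 95% interval -1.32 to -0.03, limma adjusted p = 0.183). Htr4, which stimulates adenylyl cyclase, read 150.5 and 127.5 in the transgenic pools, against 121.3 and 104.2 in the control pools at 95322_g_at (log2 change 0.30 ± 0.22 SE, adjusted p = 0.452). A second Htr4 probe set from the same accession, 95321_at, read 4.6 or less on every array, and 95323_at read 25.4 and 37.2 in the transgenic pools and 22.1 and 34.3 in the control pools. Htr7, which also stimulates the cyclase, read 99.5 and 105.2 in the transgenic pools, against 106.4 and 136.7 in the control pools, without overlap (log2 change -0.24, adjusted p = 0.591). Htr1d, Htr5a, Htr5b and the channel subunit Htr3a had log2 changes of -0.17, -0.03, 0.28 and 0.17, each with an interval that included 0 and overlapping groups. For Htr5b the interval reached 0.94 and for Htr3a 0.86, so rises up to these sizes were not excluded there. Htr1b, Htr1f, Htr2b and Htr2c lay below the filter. Htr1b spread widely, with 73.2 and 23.5 in the transgenic pools and 15.2 and 50.7 in the control pools.

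Dopamine receptors of the inhibitory group, Drd2 and Drd4, had wide intervals. Drd2 read 96 and 60.5 in the transgenic pools, against 77.3 and 126.4 in the control pools, with overlapping groups (97776_at; log2 change -0.38 ± 0.33 SE, 95% interval -1.12 to 0.37, adjusted p = 0.548). Drd4 read 112.2 and 69 in the transgenic pools, against 116.3 and 108.6 in the control pools (97755_at; log2 change -0.35 ± 0.28 SE, 95% interval -0.98 to 0.28, adjusted p = 0.496). Drd3 read 13.6 to 23.4 over the 4 arrays. Drd2 is also a marker of the striatum, which lies near this cortex, and other striatal markers spread between pools of a group in the same direction. Transgenic replicate 1 exceeded transgenic replicate 2 by 1.59-fold for Drd2, 1.55-fold for Penk (94516_f_at) and 1.13-fold for Tac1, and control replicate 2 exceeded control replicate 1 by 1.64-fold, 2.04-fold and 2.99-fold for the same 3 probe sets. Summed over 6 striatal marker probe sets, intensities were 4312 and 2883 in the transgenic pools and 2116 and 4347 in the control pools. Most of each sum came from Penk at 94516_f_at, with 3710 and 2395 in the transgenic pools and 1779 and 3622 in the control pools. The sum also includes Drd2 itself, so it adds little to the ratios above. Rgs9, a striatal regulator of G protein signalling, was at the floor on all 4 arrays. The part of striatal RNA in the Drd2 values was not tested.

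The adrenergic receptor Adra2c, which inhibits adenylyl cyclase and restrains noradrenaline release, had one of the narrower intervals. It read 330.3 and 298.4 in the transgenic pools, against 296.4 and 319.2 in the control pools (99804_at; log2 change 0.03 ± 0.16 SE, 95% interval -0.32 to 0.38, adjusted p = 0.937). Adra1b, which signals through phospholipase C, was below the filter with 41.4 and 57.4 in the transgenic pools and 47.2 and 42.3 in the control pools. The metabotropic glutamate receptor Grm8, a presynaptic inhibitory receptor, read 144.6 and 189.6 in the transgenic pools, against 199 and 176.7 in the control pools (94622_at; log2 change -0.18, 95% interval -0.64 to 0.28, adjusted p = 0.651). In all 3 genes the groups overlapped.

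Of the opioid receptor family only Oprl1, the receptor for nociceptin, was bright enough to be tested. It read 182.6 and 197.2 in the transgenic pools, against 255.8 and 268.5 in the control pools, and the groups did not overlap (104474_s_at; log2 change -0.47 ± 0.17 SE, 95% interval -0.84 to -0.09, adjusted p = 0.122). Oprd1, Oprk1 and Oprm1 had values of 2.2 to 35.6 over all arrays. Pnoc, the gene for the nociceptin precursor, was at the floor on all 4 arrays.

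Neuropeptide Y receptors, which inhibit adenylyl cyclase, gave 0 calls at 3 tested probe sets, where 10.02% of all tested probe sets were called. Npy1r read 52.4 and 99.6 in the transgenic pools and 64.8 and 97.8 in the control pools at 93007_at (log2 change -0.14, 95% interval -0.96 to 0.68). Its pools of 1 group differed more than its groups did. Npy2r read 183.4 and 190.3 in the transgenic pools and 168.1 and 201.5 in the control pools at 162037_f_at (log2 change 0.02, 95% interval -0.40 to 0.44), and 53.8 and 54.6 in the transgenic pools and 81.8 and 51.5 in the control pools at 100703_at (log2 change -0.26, 95% interval -1.02 to 0.50). The ligand gene Npy fell 1.64-fold, with 1750 and 1718 in the transgenic pools, against 2927 and 2757 in the control pools (log2 change -0.71 ± 0.11 SE, limma adjusted p = 0.00253). Npy6r read 16.4 and 19.3 in the transgenic pools and 28.2 and 22.8 in the control pools, below the filter. Npy5r and Npy4r were at the floor on every array, while a second Npy1r probe set, 93128_at, read 30 to 35.1.

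**Figure D4:**
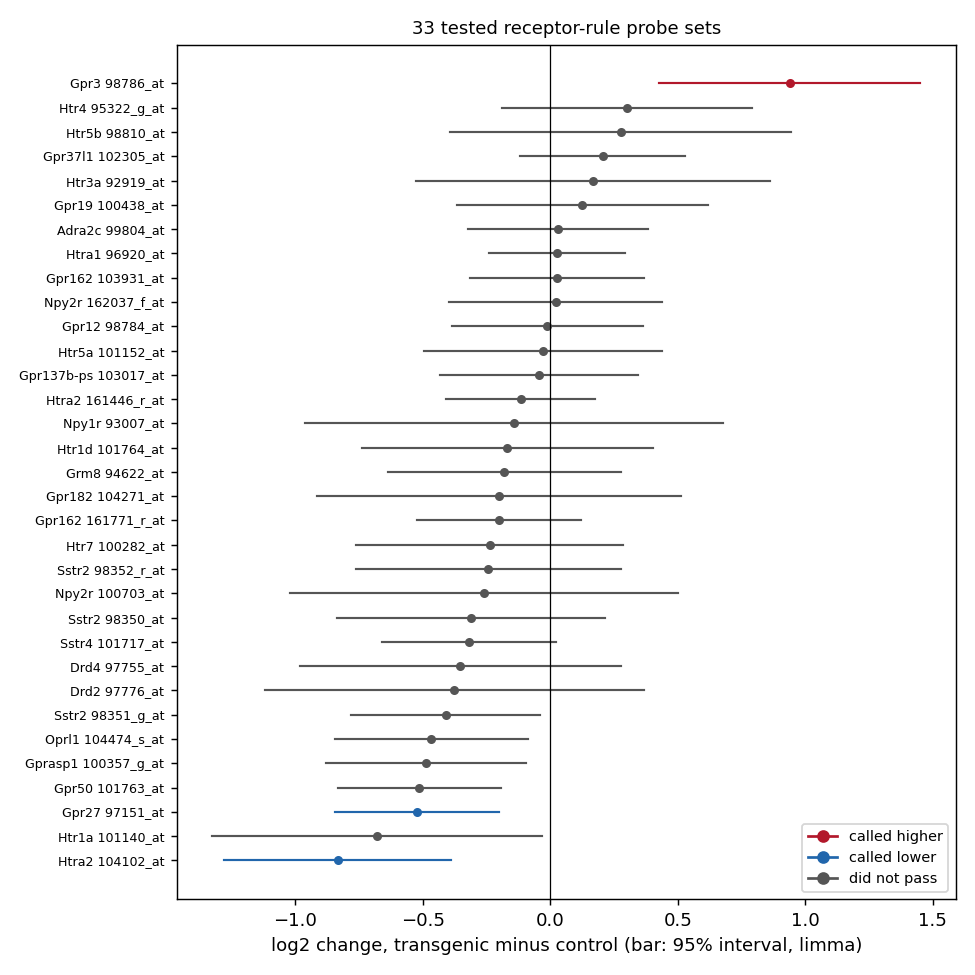
Log2 change (transgenic minus control, horizontal) with its 95% interval from limma for each of the 33 tested probe sets (vertical, ordered by change). Gpr3 lies at the top with 0.94 and Htra2 104102_at at the bottom with -0.83; 25 of the 33 intervals include 0, and 28 lie within 1 log2 unit of 0 on both sides.

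Members of 5 families gave no tested value. Cnr1, the main cannabinoid receptor of the brain, read 9.3 and 9.2 in the transgenic pools and 11.2 and 8.8 in the control pools, and Cnr2 read 6 or less on every array. The 5 prostaglandin E receptor probe sets read 0.9 to 20.5 and the purine receptors P2ry1 and P2ry2 1.6 to 11.2. Ednrb, an endothelin receptor, read 4.7 and 20.3 in the transgenic pools and 4.3 and 20.8 in the control pools. The tachykinin receptor Tacr1 read 16.6 to 23.3, and Tacr2 read 30.3 and 26.1 in the transgenic pools and 102.3 and 28.1 in the control pools, where 1 control array alone was high.

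Among the tested members, the largest fall was at a probe set of a gene that is not a receptor. Htra2, a mitochondrial serine protease, read 99.7 and 112.6 in the transgenic pools, against 190 and 187.4 in the control pools at 104102_at. The groups did not overlap, and the signal fell 1.78-fold (log2 change -0.83 ± 0.20 SE, limma adjusted p = 0.0281). A second Htra2 probe set from another accession, 161446_r_at, read 1196 and 1100 in the transgenic pools, against 1345 and 1148 in the control pools, with overlapping groups (log2 change -0.12, 95% interval -0.41 to 0.18, adjusted p = 0.649). Leaving out any 1 array ended the call at 104102_at (adjusted p 0.0781 to 0.124). Gprasp1, which directs internalised receptors to lysosomes, read 182.1 and 200.8 in the transgenic pools, against 286.6 and 250.5 in the control pools at 100357_g_at (log2 change -0.49 ± 0.17 SE, adjusted p = 0.118). Its other probe set, from the same accession, was at the floor on all 4 arrays. The secreted protease Htra1 read 1340 and 1240 in the transgenic pools and 1231 and 1301 in the control pools (log2 change 0.03, adjusted p = 0.924).

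Genes that act before and after the receptors were counted from lists, with the same background of 10.02%. Among 12 tested probe sets of monoamine synthesis, transport and breakdown, 1 rose and 1 fell (median log2 change -0.05). Tyrosine hydroxylase, Th, the first enzyme of catecholamine synthesis, read 469.1 and 405.3 in the transgenic pools, against 313 and 245.4 in the control pools (log2 change 0.65 ± 0.18 SE, limma adjusted p = 0.0450). Th is also a marker of the olfactory bulb, and Eomes, another such marker, rose with it. Eomes read 95.7 and 88.1 in the transgenic pools and 44.9 and 21 in the control pools (limma adjusted p = 0.0396). Both control values lay below the filter intensity of 49.4, so Eomes entered the test through the transgenic pools. Of the other markers on that list, Dlx1 had a log2 change of 0.59 (adjusted p = 0.118), Dcx 0.27 (adjusted p = 0.604) and Dlx2 -0.30 (adjusted p = 0.428), and the part of such cells in the Th signal was not tested. Qdpr, which regenerates the biopterin cofactor of Th, fell 1.55-fold (adjusted p = 0.00894). Of 18 tested peptide ligand probe sets 0 rose and 2 fell, Npy and Sst, and Cck, with 5102 and 4569 in the transgenic pools against 6553 and 6008 in the control pools, missed the threshold (adjusted p = 0.0521).

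Of 33 tested G protein probe sets, covering 20 genes, 4 rose and 1 fell (median log2 change -0.12). Gna13, a G protein alpha subunit, read 375.8 and 476.2 in the transgenic pools, against 24.6 and 25.7 in the control pools at 100514_at (log2 change 4.07 ± 0.24 SE). Both control values lay below the filter intensity of 49.4, so this probe set entered the test through the transgenic pools. The other Gna13 probe set, 104316_at, had a log2 change of 0.27 (limma adjusted p = 0.598). Gna11, which couples receptors to phospholipase C, rose by 2.45 at 102196_at and had -0.12 at 103411_at (adjusted p = 0.732). Gnaz and Gng10 rose by 1.24 and 0.62 on the log2 scale. Gnao1, the most abundant inhibitory-class alpha subunit of brain, fell by 1.18 at 100388_at, while 3 other tested probe sets of it had log2 changes of -0.21, 0.21 and 0.04 that did not pass. Of 23 tested probe sets of cyclic nucleotide enzymes and their effectors 1 rose and 2 fell. Adcy9, an adenylyl cyclase, rose by 2.81 at 92527_at and had -0.33 at 98356_at (adjusted p = 0.167). Prkar1b, a regulatory subunit of protein kinase A, fell by 0.996 at 101927_at and had -0.36 at 94944_at (adjusted p = 0.0587). The kinase inhibitor Pkia fell by 1.21 at 98004_at and had -0.42 at 98005_at (adjusted p = 0.103). Of 21 tested probe sets for receptor desensitisation and RGS proteins 3 rose and 1 fell. Rgs7 and Homer2 rose by 0.67 and 0.68, Arrb1, a beta-arrestin, rose by 0.67 at 162481_f_at and had 0.11 at 100473_at (adjusted p = 0.721), and Rgs11 read 120.4 and 117.6 in the transgenic pools, against 393.4 and 334.4 in the control pools (log2 change -1.61 ± 0.18 SE). For Gna13, Gna11, Gnao1, Adcy9, Prkar1b, Pkia and Arrb1 the probe set that passed thus stood beside another of the same gene that did not. A second Rgs11 probe set, 161309_r_at, was at the floor on all 4 arrays and was not tested.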

How the data were processed

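The deposited values are linear intensities, 1 for each probe set on each array; that unit was inferred from the numbers themselves, and the sources used here do not say how the authors derived them. Trimmed of the lowest and highest 2% of values, every column had a mean of 250.1 to 250.3, so the authors had scaled the arrays to a common level, and the deposited intensities were used as they are. Control probe sets (66) were left out. Genes were named from the platform annotation, which is old: 10833 probe sets carried 1 gene, 396 several and 1193 none. Symbols of 10817 were matched through gene identifiers to RefSeq (GRCm38.p6), all 73 members among them, with no member symbol changed. Probe positions were not used here.

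Intensities below the 25th percentile (19.675) were raised to it, log2-transformed and, above the 40th percentile of mean log2 intensity, compared between groups by limma 3.58.1 (R 4.3.3; eBayes with intensity trend, two-sided, transgenic minus control; 2 residual and 7.51 prior degrees of freedom). P-values were adjusted over 7453 probe sets, with a threshold of 0.05; the median SE was 0.188. All adjusted p-values, SEs and 95% intervals come from that fit unless another setting is named. Folds are back-transformed log2 changes. Transgenic and control arrays were grouped by title. Same-numbered arrays deviated together with a correlation of 0.0555, and no label ties the numbers. The fit was also run on simulated arrays with known changes, and the outcome of that run is not given here.

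Members and lists were chosen with earlier results of these data known. Values by array are given for members that passed, the 12 of next smallest p, the 10 brightest, untested members with separate groups and a change of 1 or more, and other probe sets of these genes; other members are named where a family is described. List genes are those that passed, up to 4 per direction, and others of a list are named where a receptor's ligand, a missed threshold, a second probe set or a marker bears on a result. Alternatives were the floor, the filter, scaling, the variance prior, a replicate block and leaving out each array.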

Additional observations from a re-analysis of the deposited data

How the results depend on the processing

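The number of member probe sets past the threshold was 3 with the settings used and 2 to 4 with other floors, scalings and variance priors and with the filter at the 60th percentile. Without the intensity filter it was 0 of 73 (limma; 12 at an unadjusted p under 0.05), with 48 over all probe sets (34 higher, 14 lower). Leaving out 1 array gave 0 to 1 members (limma; 5 to 9 at an unadjusted p under 0.05) and 303 to 749 probe sets over the whole array. Without the intensity trend 395 passed over the whole array (272 higher, 123 lower). The median log2 change of the members was -0.000916 without the filter, where many values lie at the floor, and -0.116 with the filter at the 60th percentile, and -0.224 to -0.109 with 1 array left out. The replicate block gave 4 members (1 higher, 3 lower) and 892 probe sets in all; it added Gpr50 and otherwise changed no member call. Same-numbered arrays were not shown to be paired.

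Of the named members, 5 changed sign when 1 array was left out, all with values near 0 in at least 1 setting: Htra1 (-0.029 to 0.083), Gpr12 (-0.23 to 0.21), Adra2c (-0.044 to 0.10), Gpr162 at 103931_at (-0.14 to 0.19) and Sstr2 at 98350_at (-0.65 to 0.028). The probe sets of Gpr3, Htra2 and Gpr27 that passed kept their direction under every alternative that gave a value. Their groups did not overlap, so leaving out 1 array or changing the floor, filter, variance prior or block could not reverse the sign. The kept direction is therefore no measure of how robust these changes are to such settings. With 2 arrays per group and most members dim, the median SE of a tested member was 0.204, and changes of receptors at the floor could not be detected. For Gpr137b and the untested probe sets of Gprasp1 and Htr4, the no-filter fit was the only alternative run that gave a value. With the floor at the 40th percentile 34 members entered the test, against 33 with the settings used.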

Other observations

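Single arrays stood apart at some dim members. Tacr2 was 3.92-fold higher on its highest array, control replicate 1, than on its lowest, and Htr1b spread from 15.2 to 73.2. Slc6a2, the noradrenaline transporter, read 38 and 157.6 in the transgenic pools and 37.1 and 34.7 in the control pools at 99409_at, and 81.3 and 57.1 in the transgenic pools and 22.5 and 60 in the control pools at 99408_at; neither passed (log2 changes 1.11 and 0.89, limma adjusted p = 0.277 and 0.298). Slc6a2 is named after its values were seen. Among ligands, Adcyap1, the gene of the peptide PACAP, read 451.7 and 731.4 in the transgenic pools, against 350.9 and 380.8 in the control pools (log2 change 0.65, limma adjusted p = 0.0893), also named after its values were seen.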
